A study of Homo sapiens with 20 samples.

Results

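The 8 genes described here encode 2 neurexins (NRXN2 and NRXN3), 2 neuroligins (NLGN1 and NLGN3) and the 4 LRRTM proteins (LRRTM1 to LRRTM4). They were chosen by gene symbol, as the coding records that carry one of these symbols. All 8 symbols had a record, and they make up 8 of the 20237 coding records and of the 38369 records in all. RNA was profiled in neural progenitors made from the established embryonic stem cell line H1 at 7 days of differentiation towards neurons. Day 0 was the progenitor culture in medium with FGF, which sustains progenitor division. At days 1, 2, 4, 5, 11 and 18 FGF had been withdrawn and BDNF, a neurotrophic factor, added. The base medium and its supplements were changed at the same time, so the later days differ from day 0 in these too. Cells for days 5, 11 and 18 were moved at day 4 from Matrigel to wells coated with Poly-D-lysine and laminin, so that day 5 differs from day 4 in the culture surface too. The labels list 20 cultures, 2 for day 5, where another was dropped by the submitters as an outlier, and 3 for every other day, all from the same cell line, and none is labelled as kept with FGF beyond day 0. The values are FPKM, fragment numbers divided by transcript length and by library size. There is 1 value per record and day, pooled over the cultures of that day. No spread between cultures or standard error could therefore be computed from these values and no test was run, the deposited test results for adjacent days were not used, and the depth behind each value is unknown.

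Neurexins are single-pass membrane proteins that sit mainly on the presynaptic side of a synapse, where their extracellular part reaches across the cleft. Neuroligins and LRRTM proteins are postsynaptic partners that bind neurexins, and either kind can induce a presynaptic specialization when shown to a contacting axon. NLGN1 is known from excitatory synapses, NLGN3 from both excitatory and inhibitory ones, and the LRRTM proteins, which carry leucine-rich repeats, mainly from excitatory synapses. Neurexin genes make long and short proteins from separate promoters and are spliced into many forms, which a value per gene does not separate.

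All 8 genes were higher at day 18 than at day 0. The change was 2-fold or more in 5 of them (NRXN2, LRRTM4, LRRTM1, NLGN3 and LRRTM2), and below 2-fold in NRXN3, NLGN1 and LRRTM3. A change is the difference in log2(FPKM + 0.1), which understates the change of low genes, and 2-fold is a difference of at least 1 on that scale. Among the 14107 coding records whose mean FPKM was 0.1 or more, which include all 8 genes, 10.6% were 2-fold higher at day 18 and 28.2% were 2-fold lower, against 5 and 0 of the 8. The median change of the 8 genes was 1.52, and that of the 14107 records was -0.52. Between the 2 neurexins the courses differed most, NRXN2 rising at every step and NRXN3 dropping 8.57-fold in the first day before it rose.

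**Figure D1:**
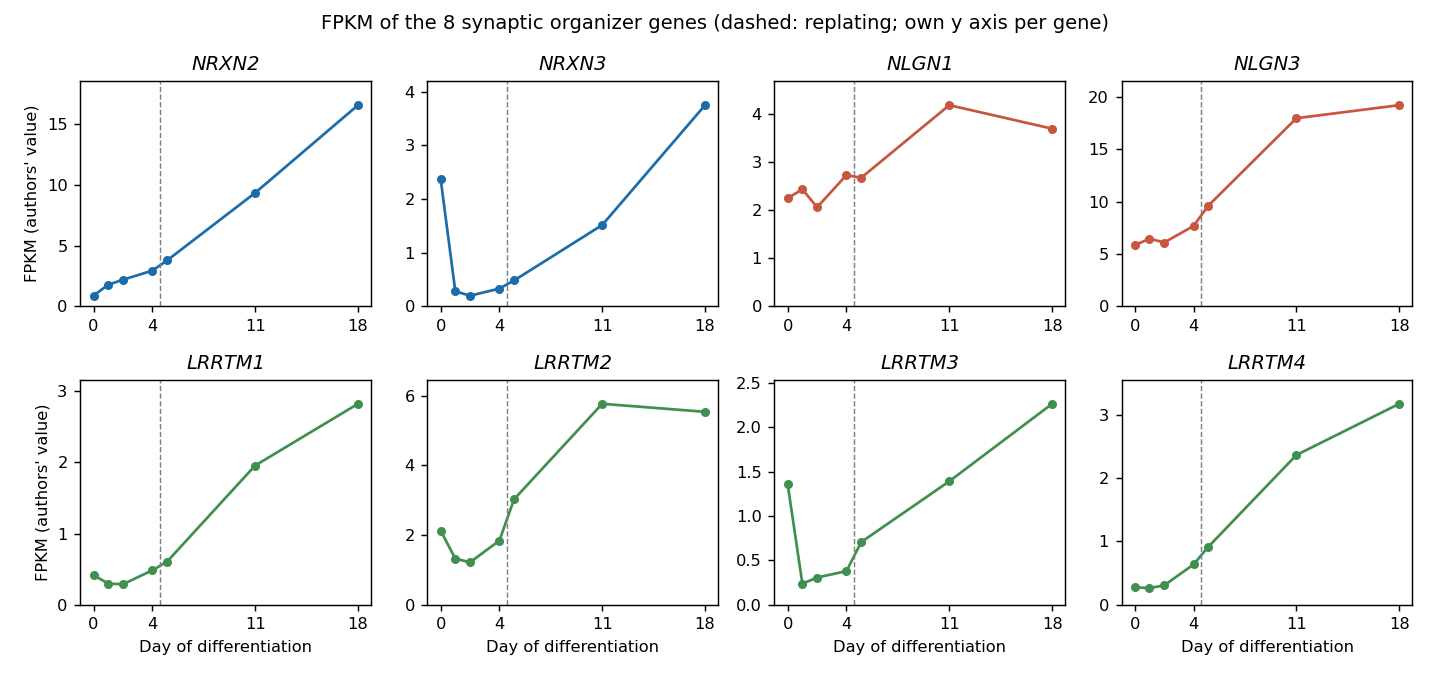
FPKM (y axis, linear, from 0, on a scale of its own for each gene) against the day of differentiation (x axis) for the 8 genes. Each point is the single deposited value of a day, so there are no error bars, and the dashed line marks the replating. NRXN2 climbs from 0.867 to 16.6, whereas NRXN3 and LRRTM3 drop at day 1 and pass their starting level by day 18.

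The days were not on one level. The median change from day 0 to day 18 of the 11793 coding records whose mean FPKM was 1 or more was -0.60, so a gene that kept pace with the typical record would have a change of -0.60. Relative to this median, all 8 genes were 2-fold higher, where 19.3% of the 14107 coding records were 2-fold higher and 12.1% were 2-fold lower. Their median change was then 2.12. Subtracting a median of -0.60 raises every change, and all 8 were already positive, so this rescaling could reverse no direction.

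NRXN2 lies on chromosome 11 (chr11:64373648-64490660, minus strand, hg19, as are all positions here). Its FPKM was 0.867, 1.77, 2.18, 2.93, 3.77, 9.34 and 16.6 on the 7 days, given from day 0 through days 1, 2, 4, 5 and 11 to day 18, an order kept for every gene below. No later day was below an earlier one, and the last value was 19.1 times the first, a change of 4.11. This was the largest rise among the 8 genes. It took NRXN2 from sixth to second place among them and from 5.59% to 29.1% of their summed FPKM. Of its 8293 exon bases, 485 overlapped a noncoding record on the other strand, linc-NRXN2-AS, whose FPKM was 0.165 at day 0 and at most 0.605 later, at day 5. Counting by strand is not stated for these values, so reads over the shared bases cannot be assigned to either gene.

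NRXN3, the other neurexin gene of the set, spans 1694 kb of chromosome 14 (chr14:78636928-80330758, plus strand). Its FPKM was 2.38, 0.278, 0.194, 0.328, 0.479, 1.51 and 3.75 on the 7 days. It was lowest at day 2 and passed its starting level only at day 18, where it stood 1.58-fold above day 0 and 19.3-fold above day 2. At day 0 NRXN3 held the larger part of the 2 neurexins' FPKM, and from day 1 on NRXN2 did. Summed over NRXN2 and NRXN3, FPKM dropped from 3.24 to 2.05 over the first day and reached 20.3 at day 18.

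NLGN3 (chrX:70364711-70391049, plus strand) was the highest of the 8 genes on every day. Its FPKM was 5.83, 6.46, 6.09, 7.67, 9.61, 18.0 and 19.2 on the 7 days. It stayed near its starting level through day 2 and rose from day 4 on, to a change of 1.71 at day 18.

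NLGN1 (chr3:173116244-174001116, plus strand) varied least. Its FPKM was 2.25, 2.43, 2.06, 2.73, 2.67, 4.19 and 3.70 on the 7 days. Its highest value, at day 11, was 2.03 times its lowest, at day 2, and no single step reached 2-fold. The change from day 0 to day 18 was 0.69, or 1.29 once the median of coding records was subtracted. The summed FPKM of NLGN1 and NLGN3 rose from 8.08 at day 0 to 22.9 at day 18, and NLGN3 held most of it on every day.

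LRRTM4 (chr2:76974858-77749502, minus strand) was the lowest of the 8 genes at day 0. Its FPKM was 0.276, 0.264, 0.307, 0.637, 0.915, 2.37 and 3.18 on the 7 days. It kept its starting level for 2 days and was then higher at each later day, up to 11.5 times day 0.

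LRRTM1 (chr2:80515481-80531487, minus strand) followed a similar course with a small early dip. Its FPKM was 0.416, 0.298, 0.288, 0.484, 0.605, 1.96 and 2.82 on the 7 days. The last value was 6.78 times the first.

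LRRTM2 (chr5:138205079-138211057, minus strand) was the highest of the LRRTM genes on every day. Its FPKM was 2.13, 1.32, 1.22, 1.84, 3.03, 5.77 and 5.54 on the 7 days. It dipped to 0.573 of its starting level at day 2, was above that level from day 5 on, and changed little between days 11 and 18.

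LRRTM3 (chr10:68685792-68860867, plus strand) had the second deepest early loss after NRXN3. Its FPKM was 1.36, 0.237, 0.308, 0.380, 0.707, 1.39 and 2.27 on the 7 days. It was back at its starting level at day 11 and 1.67-fold above it at day 18. The 4 LRRTM genes together summed to 4.18 FPKM at day 0, dropped to 2.12 by day 1 and reached 13.8 by day 18.

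**Figure D2:**
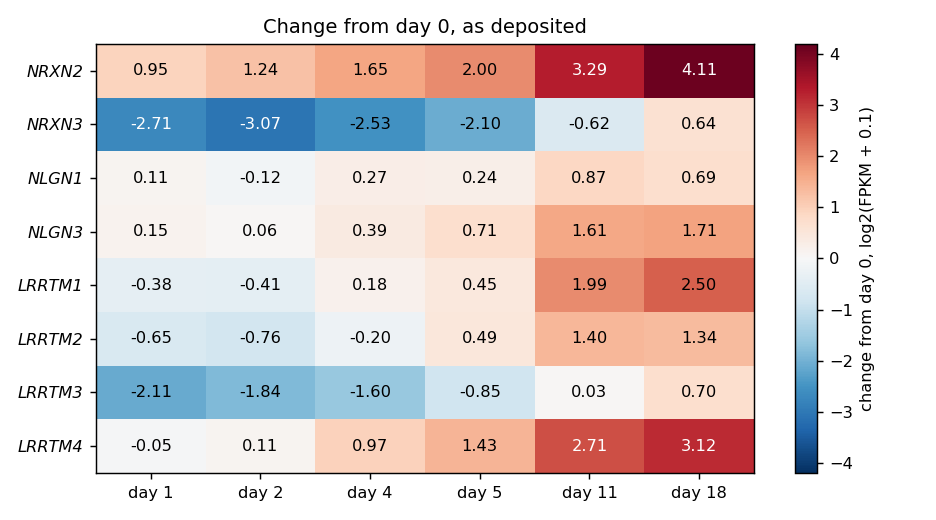
Change from day 0 in log2(FPKM + 0.1) for the 8 genes (rows) at the 6 later days (columns), with the value printed in each cell and red for higher, blue for lower. The row of NRXN2 is red throughout, that of LRRTM3 is blue from day 1 to day 5, and that of NRXN3 is blue through day 11.

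The first day after FGF withdrawal and the other changes of medium separated the genes. NRXN3 and LRRTM3 were 2-fold lower at day 1 than at day 0, with changes of -2.71 and -2.11, and no member was 2-fold higher. Of the coding records, 3.68% were 2-fold lower and 4.61% were 2-fold higher over this step. NRXN2 reached 2.04 times its day 0 FPKM, a change of 0.95 that stayed just under the limit. It passed the limit relative to the median of coding records (1.06) and with a pseudocount of 0.01, either of which made NRXN2 the 1 member that was 2-fold higher over this step. A 2-fold drop at day 1 followed by a 2-fold rise from day 1 to day 18 was found in 45 coding records, 0.319% of those tested, NRXN3 and LRRTM3 among them. This pattern was not a planned comparison and describes the course of these 2 genes, so the share is descriptive only. Of the 45 records, 32 ended above their day 0 value, as did both of these genes.

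Between day 1 and day 5 no member changed 2-fold in a single step on the scale used. LRRTM4 came closest, from 0.307 to 0.637 FPKM between days 2 and 4. This was 2.08-fold in FPKM but a change of 0.86 with the pseudocount. The share of coding records that changed 2-fold in either direction was 0.567% between days 1 and 2, 1.29% between days 2 and 4, and 0.539% between days 4 and 5. All 8 genes were higher at day 11 than at day 5, by 0.63 (NLGN1) to 1.54 (LRRTM1), and NRXN2, NRXN3, LRRTM1 and LRRTM4 rose 2-fold. Over that step 2.56% of coding records rose 2-fold, 4.57% fell 2-fold, and 31.7% were higher at day 11 by any amount.

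This was the step with the largest rise for each of the 8 genes, as it was for 12.8% of the tested coding records. The steps differ in length, however, and this one covers 6 days. Per day, NRXN3, NLGN3, LRRTM2, LRRTM3 and LRRTM4 rose fastest between days 4 and 5. NLGN1 and LRRTM1 rose fastest between days 2 and 4, and NRXN2 between days 0 and 1. The step from day 4 to day 5 spans the replating, and day 5 had 2 cultures. Rates per day set short steps beside averages over longer ones. The shares of coding records that rose fastest per day in each step were not computed. From day 11 to day 18 only NRXN3 rose 2-fold, from 1.51 to 3.75, and no member fell 2-fold, against 1.66% and 3.54% of coding records.

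Set against day 1 instead of day 0, a start chosen after the values were seen, 7 of the 8 genes were 2-fold higher at day 18, all except NLGN1, as were 7.44% of coding records. The changes of NRXN3 and LRRTM3 were then 3.35 and 2.81, close to the 3.16 of NRXN2 and the 3.17 of LRRTM4.

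**Figure D3:**
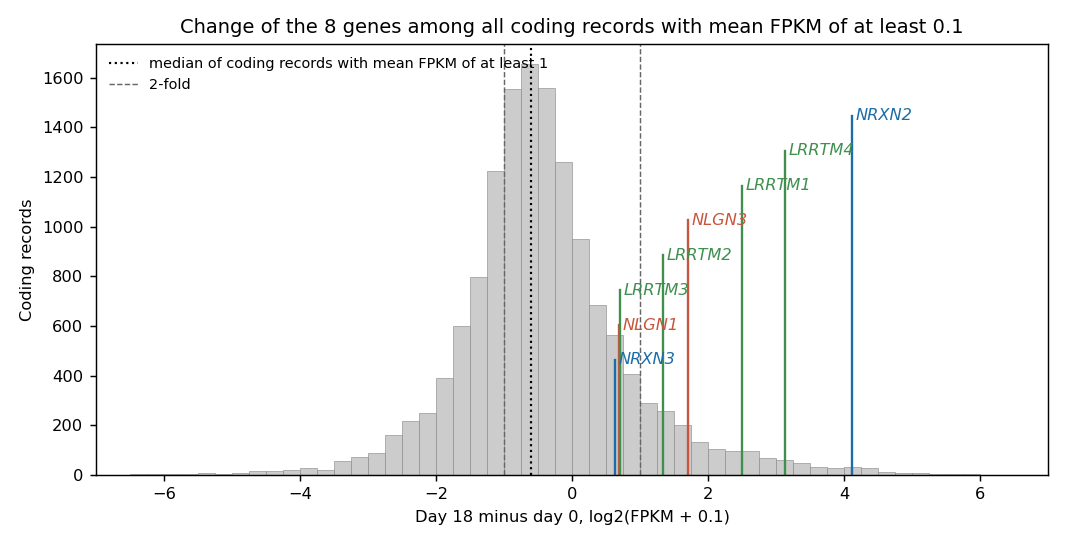
Number of coding records (y axis, grey bars, bins of 0.25) by their change from day 0 to day 18 in log2(FPKM + 0.1) (x axis), with the 8 genes as coloured lines whose heights carry no value. Dashed lines mark 2-fold and the dotted line the median of coding records averaging 1 FPKM or more, at -0.60; all 8 genes lie to the right of it, from NRXN3 at 0.64 to NRXN2 at 4.11.

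FPKM is scaled to transcript length, so the levels can be set in order. At day 0 the order was NLGN3, NRXN3, NLGN1, LRRTM2, LRRTM3, NRXN2, LRRTM1 and LRRTM4, and at day 18 it was NLGN3, NRXN2, LRRTM2, NRXN3, NLGN1, LRRTM4, LRRTM1 and LRRTM3. Without replicate values it cannot be said which neighbours in these orders differ beyond their spread, and several were close, such as NRXN3 and NLGN1 at day 18 with 3.75 and 3.70. Among all coding records the 8 genes lay between percentiles 36.6 and 58.4 at day 0 and between 49.7 and 87.8 at day 18. In a bulk sample, fewer cells that express a gene and less RNA per cell cannot be told apart.

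Markers of cell types moved over the same days. Of 10 neuron markers, 7 were 2-fold higher at day 18 and 1 was lower (NEFL, a neurofilament subunit), and their summed FPKM went from 895 at day 0 to 1874 at day 18. STMN2, a microtubule regulator of growing axons, rose from 32.3 to 727, and ELAVL4, a neuronal RNA-binding protein, from 0.149 to 4.89. All 5 markers of cycling cells were 2-fold lower (summed FPKM 459 and 76.6), as were 3 of the 4 mesenchymal markers that averaged 0.1 FPKM or more, the limit for calling a gene measured here (640 and 54.5, with COL1A1 listed at 0 on every day). Of 6 progenitor markers, all measured, 1 was 2-fold higher and 1 lower, with a median change of -0.77 and summed FPKM of 3656 and 1795. The 1 that was higher was PAX6, from 4.31 to 10.4, and the 1 that was lower was NES, from 513 to 180. SOX2 went from 126 to 66.1, a change of -0.94 that stayed below 2-fold. Astrocyte markers had summed FPKM of 104 and 82.7, with 1 of 4 measured higher and 2 lower, oligodendrocyte lineage markers 35.4 and 34.1, with 1 of 4 higher and 2 lower, pluripotent markers 20.2 and 6.94, with 1 of 1 lower, and microglial markers 3.19 and 0.843, with 1 of 1 lower. The astrocyte marker that was higher was SLC1A3, from 16.2 to 63.1. Those that were lower were GJA1, from 78.3 to 15.0, and S100B, from 8.68 to 4.25. The astrocyte gene GFAP was at 0.186 or less and the microglial gene CX3CR1 at 0.0162 or less on every day, and both averaged below the limit of 0.1. The records of TUBB3, PDGFRA and CSF1R in these lists also carry other symbols. The part of these shifts in the changes of the 8 genes was not tested.

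The changes of the neuroligin genes NLGN2 and NLGN4X lay below those of all 8 genes. NLGN2, known from inhibitory synapses, stood at 31.9 at day 0 and 37.3 at day 18, above NLGN3 on every day, with a change of 0.22. NLGN4X went from 20.1 to 10.3, a change of -0.96, and was the only neurexin or neuroligin gene named here that was below its day 0 value at day 18. It stayed lower after rescaling to the median of coding records, with a change of -0.36.

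Of 23 genes listed as other ligands and partners of neurexins or as related organizers, 18 averaged 0.1 FPKM or more. Among these 8 were 2-fold higher at day 18 and 3 were 2-fold lower, with a median change of 0.12. CBLN2, a secreted cerebellin that links neurexins to postsynaptic receptors, rose most, from 0.289 to 19.4 FPKM (5.65), followed by NXPH1, a neurexophilin that binds alpha-neurexins, from 0.0897 to 2.46 (3.76). NXPH2, another neurexophilin, fell most (-2.29), followed by GPC4 (-2.26), a glypican that binds LRRTM4, which went from 187 to 39.0 FPKM while LRRTM4 rose from 0.276 to 3.18.

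LAR-type receptor phosphatases are a second family of presynaptic organizers, with postsynaptic partners of their own. Of 22 genes listed as these phosphatases, their partners or related organizers, 21 were measured. Of these, 8 were 2-fold higher and 2 lower, with a median change of 0.75. SLITRK3 (3.45) and SLITRK2 (3.07), postsynaptic ligands of these phosphatases, rose most. IL1RAP (-2.06), which also serves as an interleukin co-receptor, and SLITRK5 (-1.32) fell most. The phosphatase genes themselves, PTPRD, PTPRF and PTPRS, changed less than 2-fold, with day 18 values of 1.18, 0.900 and 1.69 times day 0, a comparison picked after the values were seen.

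Of 24 intracellular partners 23 were measured, 8 of them 2-fold higher and 1 lower, with a median change of 0.62. SHANK1, a scaffold of the postsynaptic density, rose from 0.0714 to 4.54 FPKM (4.76), and DLG2, a scaffold that binds neuroligins, from 0.872 to 4.55 (2.26). DLG1, a scaffold of the same family, fell from 18.2 to 8.33 FPKM (-1.12). SYTL1, a synaptotagmin-like protein, had the next lowest change, of -0.76.

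Of 15 inhibitors, sheddases and splicing factors 13 were measured, with RBFOX2 found under the older symbol RBM9 and RBFOX1 under no symbol. Among them 3 were 2-fold higher and 2 lower, with a median change of 0.35. MDGA1, which binds neuroligins and blocks their contact with neurexins, rose from 2.55 to 11.5 FPKM (2.13). KHDRBS2 (1.72) and KHDRBS3 (-1.30), both RNA-binding proteins that regulate neurexin splicing, moved in opposite directions, and PTBP1, a splicing repressor of progenitors, fell from 180 to 34.9 FPKM (-2.36).

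**Figure D4:**
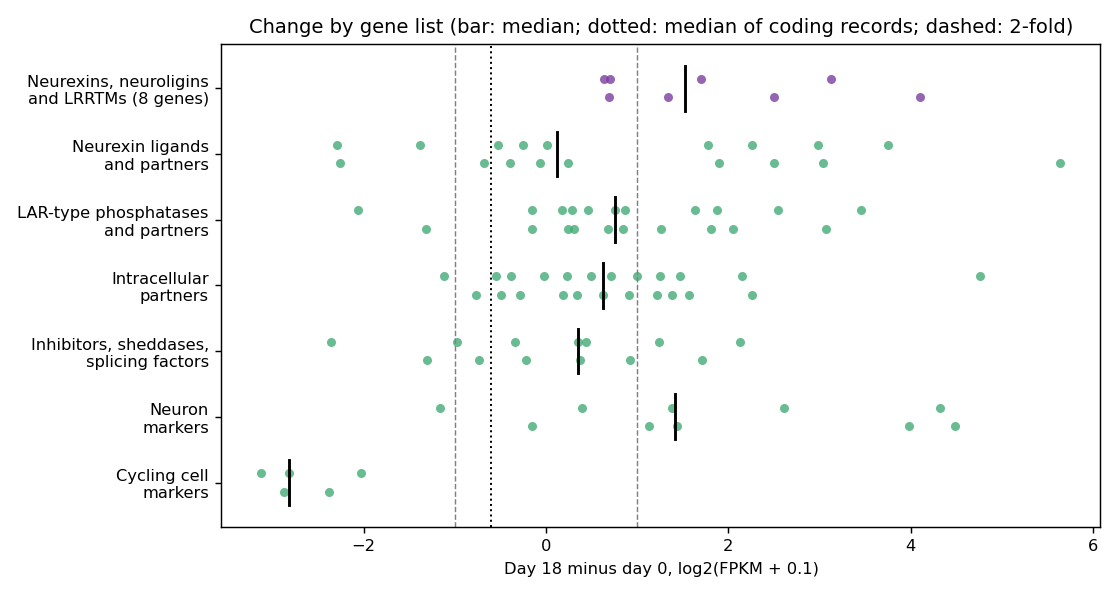
Change from day 0 to day 18 in log2(FPKM + 0.1) (x axis) of the 8 genes and of the genes averaging 0.1 FPKM or more in 6 lists (rows), 1 point per gene. Black bars are list medians, the dotted line is the median of coding records averaging 1 FPKM or more (-0.60), and dashed lines mark 2-fold; the 8 genes have a median of 1.52 and the neuron markers one of 1.41.

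LRRTM1, LRRTM2 and LRRTM3 each lie within an alpha-catenin gene, on the other strand. Alpha-catenins link cadherins to the actin cytoskeleton. LRRTM1 is nested in CTNNA2, LRRTM2 in CTNNA1 and LRRTM3 in CTNNA3, and LRRTM4 in none.

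The start of LRRTM1 is 758 bases from the start of 1 of the 6 CTNNA2 isoforms, which runs the opposite way, and the start of LRRTM2 is 285 bases from that of 1 of the 6 CTNNA1 isoforms. LRRTM1 and LRRTM2 share 0 exon bases with their hosts. LRRTM3 has no such neighbouring start, and a CTNNA3 isoform ends 448 bases before its start and shares 179 exon bases with it. As counting by strand is not stated, reads over these shared bases cannot be assigned to either gene. The same holds for any reads from host introns over the exons of the LRRTM genes.

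The hosts did not follow 1 course. CTNNA2 rose 2-fold, from 8.80 to 22.1 FPKM (1.32), and most of its rise came between day 0 (8.80) and day 1 (16.8), when LRRTM1 went from 0.416 to 0.298. CTNNA1 fell 2-fold, from 139 to 61.1 FPKM (-1.18), while LRRTM2 rose from 2.13 to 5.54. CTNNA3 had 0.136 FPKM at day 0, a peak of 0.355 at day 1 and 0.106 at day 11, below LRRTM3 on every day except day 1.

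**Figure D5:**
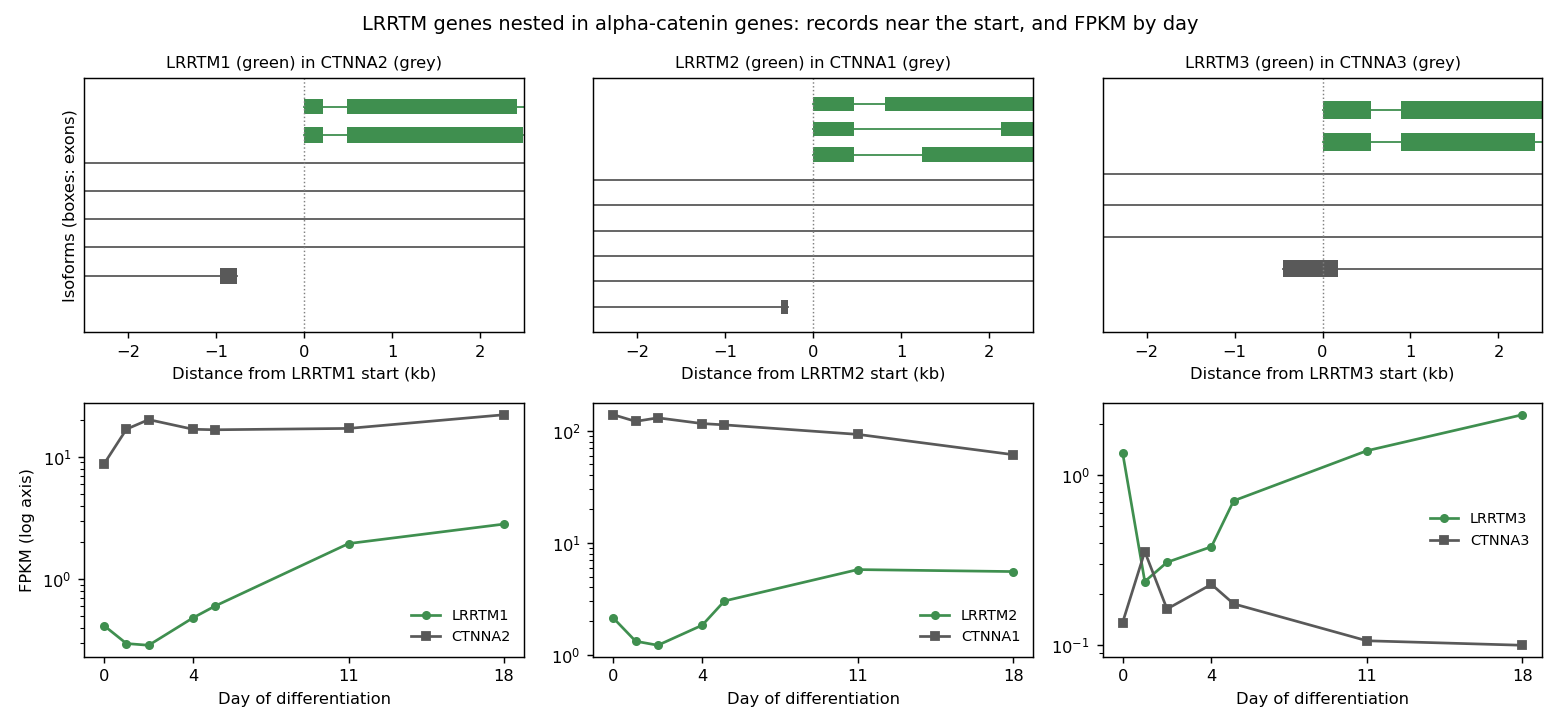
Top, isoforms in the deposited table within 2.5 kb of the start of LRRTM1, LRRTM2 and LRRTM3 (green) and of their alpha-catenin hosts (grey, read from right to left), with exons as boxes and distance from the LRRTM start in kb on the x axis. Bottom, FPKM by day on a log axis for each pair; LRRTM2 goes up from 2.13 to 5.54 as CTNNA1 goes down from 139 to 61.1.

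Bases between the facing starts are shown for LRRTM1 (250 of 757) and LRRTM2 (217 of 284), because these genes and their hosts start within so short a stretch. They come from RefSeq windows of 250 bases before a start (GRCh38), each of which matched hg19 exactly at 1 place on its chromosome, and the LRRTM2 window is trimmed to begin before the deposited first exon. They read 5′ to 3′ on the minus strand, at chr2:80531878-80532127 for LRRTM1 and chr5:138211058-138211274 for LRRTM2, and capitals mark motif matches.
LRRTM1: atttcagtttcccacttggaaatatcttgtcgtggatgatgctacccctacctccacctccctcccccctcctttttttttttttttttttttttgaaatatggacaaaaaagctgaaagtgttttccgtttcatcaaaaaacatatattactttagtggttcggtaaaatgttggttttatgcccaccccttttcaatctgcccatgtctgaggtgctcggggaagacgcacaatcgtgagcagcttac
LRRTM2: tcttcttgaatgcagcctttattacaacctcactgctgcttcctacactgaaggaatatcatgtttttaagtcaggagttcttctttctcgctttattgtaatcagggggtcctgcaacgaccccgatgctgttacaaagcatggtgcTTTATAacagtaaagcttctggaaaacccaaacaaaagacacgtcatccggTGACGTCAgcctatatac
Windows were found for 6 of the 8 genes, 10 windows in all, and 14 short motifs were searched on both strands. The letters searched were TATAAA (in 10.7% of all 35116 windows), GGGCGG (42.6%), CCAAT (32.0%), CACGTG (6.34%), CAGCTG (14.0%), CATCTG (12.2%), TGACGTCA (1.65%), CCGGAAGT (3.42%), CTTTGTT (4.5%), ATGCAAAT (1.63%), GGACAGC (4.76%) and TTCAGCACC (0.288%), and the binding motif of the factor NRF1 in a strict form (1.03%) and a looser one that includes it (7.16%). Of these, 7 had a match in a window of the 8 genes.

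The LRRTM2 window held TGACGTCA, the cyclic AMP response element, beginning 18 bases before the deposited LRRTM2 start, and TATAAA on the opposite strand 69 bases before it. The LRRTM1 window held none of the 14. It lies 391 bases upstream of the deposited LRRTM1 start, because the RefSeq start is farther upstream. The bases next to the deposited start were therefore not searched. The GC content of the untrimmed windows was 40.8% for LRRTM1 and 43.6% for LRRTM2, against a median of 58% over all windows. Both LRRTM3 windows (40.8% and 41.6%) were similarly low, although LRRTM3 has no facing host start. The second of these precedes a RefSeq start at position 68772024, inside the deposited LRRTM3 record, which starts at 68685792. All windows precede RefSeq starts, which need not be the deposited ones. Both NLGN1 windows (69.2% and 67.2%) and the NLGN3 window (62%) were above the median, and the NRXN3 windows (56.8%, 51.2% and 66.4%) lay on both sides of it. A match describes the letters of the window only.

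The courses of the 8 genes were compared with each other and with all 12553 coding records averaging 0.5 FPKM or more, by the root mean square difference of log2(FPKM + 0.1) over the 7 days after each gene's own mean was subtracted. Among the members the closest pair was NLGN3 and LRRTM2 (0.29), followed by LRRTM1 and LRRTM4 (0.30), and the farthest was NRXN2 and NRXN3 (1.40). LRRTM3 was the second most similar record to NRXN3 (0.47), after the transcription factor gene POU3F1 (0.44) and before RAPGEF5 (0.53). POU3F1 was also first for LRRTM3 (0.16), followed by NAV3 (0.30) and C2orf80 (0.32), and its own FPKM dropped from 6.59 to 1.62 over the first day and reached 13.8 by day 18.

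For NRXN2 the most similar named records were GABBR2, a GABA-B receptor subunit (0.094), DTX1 (0.14) and DACH2 (0.15). For NLGN1 they were SETBP1 (0.078), GSTA4 (0.079) and MEGF10 (0.087), and for NLGN3 they were ACVR2A, an activin receptor (0.055), PAK3 (0.080) and CTTNBP2 (0.097). LRRTM1 was closest to DNAJC22 (0.077), DBC1 (0.15) and DNM3, a dynamin (0.17), and LRRTM2 to NDRG4 (0.16) and NDST3 (0.19). LRRTM4 was closest to ZNF804A (0.089), TMEM35 (0.14) and SCN3A, a voltage-gated sodium channel (0.14). These distances rest on 7 values per gene and carry no test.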

How the data were processed

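Polyadenylated RNA of the 20 cultures was sequenced as paired ends by the authors. Per the labels and the study's methods, reads were aligned to hg19 with TopHat2, and the authors merged assembled transcripts with coding genes and a lincRNA catalogue and estimated expression with Cuffdiff2. Versions are not given in the sources used here. The deposited FPKM values hold 1 value per record and day, and 0 columns with per-culture values were used. The deposited table also holds the authors' own comparisons of adjacent days (fold changes, test statistics, p-values and q-values), which were not used. The matrix and the table differed in 4 records, none of them a member.

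For each symbol the coding record with the highest mean FPKM was taken. Each of the 8 genes had 1 record, carrying no other symbol, and 159 of the records' 177 exon edges (89.8%) were GENCODE exon edges of the same gene on GRCh37. Changes were computed as log2(FPKM + 0.1), called at 2-fold, and set beside coding records averaging 0.1 FPKM or more. The script was tested on simulated data. All 8 genes were named, with the 2 largest rises and falls of each list of related genes, the 3 most similar records of each gene and the 3 host genes. A record without a symbol was passed over for NRXN2 and for LRRTM2. Results for some genes that this rule or the lists would name are not reported here. The members, the lists and the motifs were chosen with earlier results of these data known, and genes picked outside the rule are described as such. Python 3.11.15, pandas 2.3.3, NumPy 2.4.6 and matplotlib 3.10.9 were used.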

Additional observations from a re-analysis of the deposited data

How the results depend on the processing

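No paired analysis was possible because the files hold 1 value per record and day, and leaving out each culture in turn was not run for the same reason. The 5 members that were 2-fold higher at day 18 became 8 relative to the median of coding records, 8 with upper quartile scaling and 8 at a 1.5-fold limit, while the share of all coding records that were higher went from 10.6% to 19.3%, 20.3% and 16.2%. With the mean of days 0, 1 and 2 as the start, 7 members were 2-fold higher, beside 7.39% of coding records. For the steps between days, shares cover both directions. The count of 2 from day 0 to day 1 (8.29% of coding records) became 1 with a pseudocount of 1 (3.3%) and 4 at 1.5-fold (25.5%). It became 3, NRXN2 being the added gene and higher, with a pseudocount of 0.01 (11.3%) and relative to the median (8.62%). The count of 0 from day 2 to day 4 (1.29%) became 1, LRRTM4, with a pseudocount of 0.01 (2.64%) and 2 at 1.5-fold (6.41%). That from day 4 to day 5 (0.539%) became 2 at 1.5-fold (4.62%). The count of 4 from day 5 to day 11 (7.13%) became 1 with a pseudocount of 1 (2.96%), 7 relative to the median (7.07%) and 8 at 1.5-fold (18.8%). The count of 1 from day 11 to day 18 (5.2%) became 0 (1.98%), 2 (4.66%) and 3 (18.7%) under the same settings in turn. NLGN1 and LRRTM2, highest at day 11 as deposited, were highest at day 18 after rescaling each day to the median. Relative to the median, the LAR-type list went from 8 higher and 2 lower to 13 and 1, the intracellular list from 8 and 1 to 13 and 0, and the list of inhibitors, sheddases and splicing factors from 3 and 2 to 5 and 1, and no host gene was 2-fold lower (1 as deposited). Of 64 member changes under the alternatives, 63 kept their sign and 29 moved by over 1.5 times. Many of the 64 could not change sign. A pseudocount cannot reverse a change, and summing the records of a symbol repeated the same value, as each gene had 1 record. Rescaling to the median or the upper quartile raised every change. Only another start or end day could reverse a sign. The exception was NRXN3 with day 11 as the end of the course, at -0.62, its FPKM being 2.38 at day 0 and 1.51 at day 11. Why NRXN3 was lower at day 11 was not tested. Genes at low FPKM, such as LRRTM4 at day 0 (0.276), depend most on the pseudocount, and their precision cannot be given without counts.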
